A study of Mus musculus with 26 samples.

Results

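CEBPb sites without CEBPa are the places in the adipocyte genome where the CEBPb peak list had a peak and the CEBPa list had none. The 200 bp peak windows of 5 transcription factor lists (CEBPa, CEBPb, ATF2, JUND and FOSL2) were joined into sites wherever windows overlapped by at least 1 bp, and the sites were chosen by holding a CEBPb peak and no CEBPa peak. Of 49656 sites, 3580 (7.21%) met this rule and are called CEBPa-free CEBPb sites below. A further 11357 sites (22.9%) held CEBPa and CEBPb and are called shared sites, 975 (1.96%) held CEBPa without CEBPb, and 33744 (68.0%) held neither. Each of the 14937 CEBPb peaks lay in a site of its own, so 24.0% of CEBPb peaks had no CEBPa partner by this rule. Since CEBPb and CEBPa peaks chose the sites, their scores are described below without a test.

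The cells were mature adipocytes differentiated in culture from 3T3-L1, an established mouse fibroblast line. Cells were either untreated or received rosiglitazone, a PPARγ agonist, at 1 µM in DMSO. The 5 factor lists all came from untreated cells with 1 list each. Each condition had 1 list of CBP, of p300 and of NCOR and 2 lists of MED1, and since the labels do not say whether the MED1 replicates were separate cultures, their spread may be technical. The labels give no treatment time for these libraries, while peak names carry 1 h in the second rosiglitazone MED1 list and 30 min in the rosiglitazone NCOR list. CBP, p300 and NCOR are therefore compared between conditions as single libraries, possibly taken at different times.

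C/EBPβ and C/EBPα are basic leucine zipper proteins that bind DNA as dimers and recognise the same kind of element. C/EBPβ appears early when preadipocytes are induced and helps switch on C/EBPα, which together with PPARγ maintains the mature fat cell. ATF2, JUND and FOSL2 are basic leucine zipper proteins of the ATF and AP-1 groups. MED1 belongs to Mediator, a complex that links bound factors to RNA polymerase II, CBP and p300 are related histone acetyltransferases that act as coactivators, and NCOR is a corepressor that brings in a histone deacetylase.

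The 15 lists held 4656 to 28491 peaks, 230453 in all. Scores were set by the authors, and read depth is unknown. The lists describe cell populations, so binding in fewer cells and weaker binding in each cell cannot be told apart. Peak names in the CEBPa and CEBPb lists, unlike the others, carry the letters DS, which the labels do not explain, so it is not known whether these libraries came from the same chromatin or protocol as the rest. The lists also cannot say whether the partners at a shared site occupied the same DNA molecule.

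CEBPa-free CEBPb sites carried low CEBPb scores. Their scores ran from 1.00 to 5.20 with a median of 1.20, and the middle of the distribution (25th to 75th percentile) spanned 1.09 to 1.38. Shared sites had a median CEBPb score of 2.03 and a highest score of 11.45. In the lowest of 10 score bins (1.00 to 1.12) 70.6% of CEBPb sites lacked CEBPa, in the fifth bin (1.56 to 1.70) 16.2% did, and in the highest bin (3.76 to 11.45) 6 of 1489 sites (0.403%) did. The lowest 3 bins held 2656 of the sites without CEBPa (74.2%), and the highest 3 bins held 72. A CEBPb score of 2 or more was carried by 180 CEBPa-free sites (5.03%), against 51.1% of shared sites. The list of CEBPa peaks ended at a score of 1.01, so a weaker CEBPa signal at a listed CEBPb site would not appear in it.

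**Figure D1:**
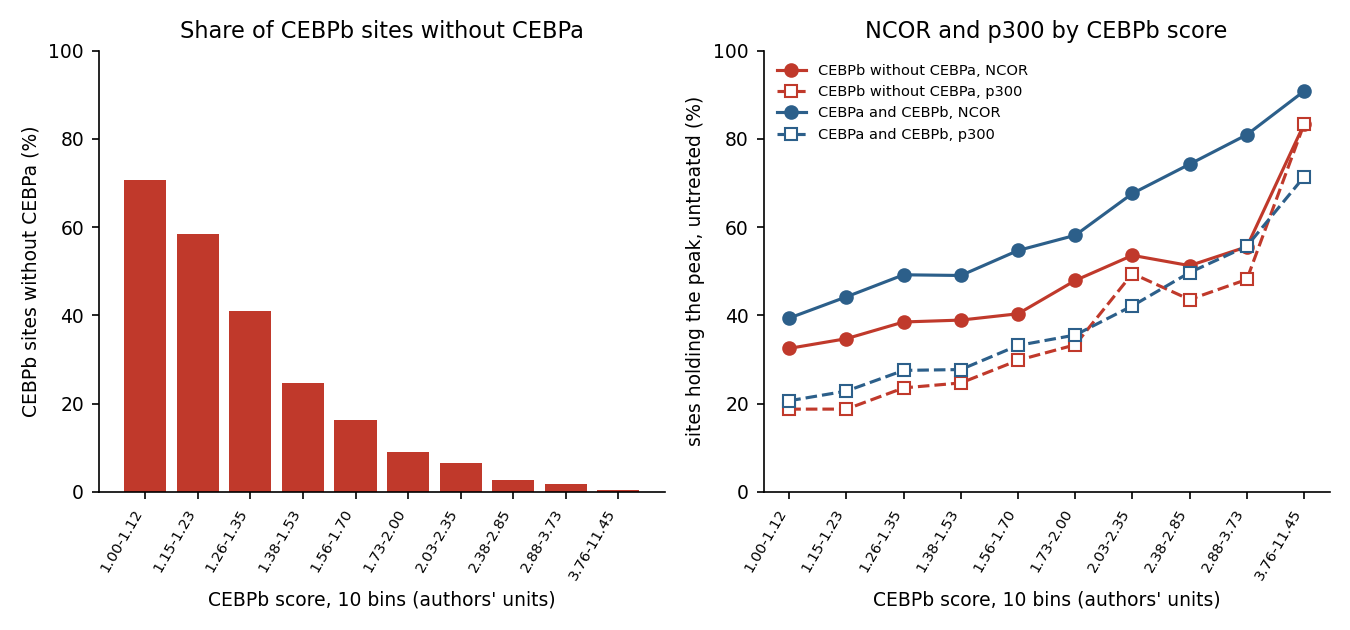
Left, the share of CEBPb sites without CEBPa (%) in 10 bins of the authors' CEBPb score, falling from 70.6% in the lowest bin to 0.403% in the highest. Right, the share of sites (%) with an untreated NCOR peak (filled circles) or p300 peak (open squares) in the same bins for sites without CEBPa (red) and shared sites (blue); the last red points rest on 6 sites.

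The edge of the rule can be seen at single sites. The CEBPa-free site nearest to a CEBPa peak, on chromosome 16 at 92117404 to 92117658 (mm8, counted from 1), had its CEBPb centre 220 bp from the CEBPa centre and a CEBPb score of 2.35. The next, on chromosome 12 at 83058685 to 83058884, was 221 bp away and scored 2.50. Just inside the shared class, the site on chromosome 11 at 58118593 to 58118989 had centres 156 bp apart with scores of 1.14 for CEBPa and 1.56 for CEBPb. The shared site on chromosome 1 at 89929708 to 89930052 had centres 144 bp apart with scores of 1.69 and 1.09. Such near neighbours were few: 13 CEBPa-free sites had a CEBPa centre within 300 bp, 197 (5.50%) within 1000 bp and 675 (18.9%) within 5000 bp. Their median distance to the nearest CEBPa peak was 28072 bp. At shared sites the CEBPa and CEBPb centres were a median of 11 bp apart, a closeness that the overlap rule itself favours. The nearest CEBPa peak outside a shared site was a median of 22157 bp away. It lay within 1000 bp at 4.49% of shared sites and within 5000 bp at 20.9%, close to the shares at CEBPa-free sites. CEBPa-free sites made up between 20.8% (chromosome 10) and 29.4% (chromosome X) of the CEBPb sites of the 20 chromosomes.

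Many CEBPa-free CEBPb sites held no other peak. Their median width was 200 bp, the longest was 567 bp, and 59.8% were exactly 1 window of 200 bp, against 63.6% of CEBPa sites without CEBPb. Shared sites join at least 2 windows, so their width is not compared. Neither ATF2, JUND nor FOSL2 was present at 2137 of them (59.7%), 663 held 1 of the 3, 416 held 2 and 364 (10.2%) held all 3. None of the 10 MED1, CBP, p300 and NCOR lists had a peak at 1543 sites (43.1%), against 20.6% of shared sites. No peak of any of the 13 other lists was present at 1305 sites (36.5%), against 16.9% of shared sites, and 29 (0.810%) held all 13, against 2.91%. CEBPa sites without CEBPb were close to the CEBPa-free sites, with 39.3% in none of the 10 cofactor lists and 34.6% in none of the 13.

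Among the partner factors, ATF2 was the most frequent at CEBPa-free sites, as it was at shared sites. ATF2 had a peak at 1199 CEBPa-free sites (33.5%), JUND at 775 (21.6%) and FOSL2 at 613 (17.1%). At shared sites the shares were 53.1%, 31.8% and 23.3%. CEBPa-free minus shared, ATF2 differed by -19.6 percentage points (95% Newcombe interval -21.4 to -17.8), JUND by -10.1 points (-11.7 to -8.50) and FOSL2 by -6.14 points (-7.57 to -4.66). A difference is taken as past the threshold when its interval leaves out 0. These intervals cover counting error only, sites are not replicates, and with 1 list per factor the comparison is between libraries.

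The differences in partner factors changed in size and sign once sites of like CEBPb score were compared. Within the 10 score bins, weighted to the scores of the CEBPa-free sites, ATF2 differed by -2.68 points (-5.02 to -0.34) and was lower on 16 of 20 chromosomes. JUND was higher by 2.01 points (0.05 to 3.96) and FOSL2 by 2.02 points (0.23 to 3.80), with 9 and 6 of 20 chromosomes lower. The JUND and FOSL2 values lost their call when a partner peak had to overlap by 100 bp (1.60 and 1.26 points). With the upper 50% of each list FOSL2 was at -0.12, a setting in which the CEBPa list was cut as well. FOSL2 peaks at CEBPa-free sites had a median score percentile within their own list of 60.8, the same as at shared sites. JUND peaks had a median percentile of 59.5 against 62.4, and ATF2 peaks of 60.9 against 71.8.

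All 10 cofactor lists had peaks at fewer CEBPa-free than shared sites. Of the coactivators, CBP was present at 895 CEBPa-free sites (25.0%) in untreated cells and 600 (16.8%) after rosiglitazone, against 45.1% and 33.8% of shared sites. For p300 the counts were 816 (22.8%) and 722 (20.2%), against 42.4% and 37.0%. The differences were -20.1 points (-21.8 to -18.4) for untreated CBP and -19.6 points (-21.2 to -17.9) for untreated p300. MED1 was in the 2 untreated lists at 8.49% and 7.29% of CEBPa-free sites and in the 2 rosiglitazone lists at 11.3% and 9.83%. At shared sites these 4 shares were 17.9%, 19.1%, 21.1% and 21.6%. The corepressor NCOR was the most frequent cofactor, at 1316 CEBPa-free sites (36.8%) untreated and 1471 (41.1%) after rosiglitazone, against 64.9% and 68.5% of shared sites. Its differences were -28.2 points (-30.0 to -26.3) and -27.4 points (-29.3 to -25.6). Each of the 10 shares was lower at CEBPa-free than shared sites on 20 of 20 chromosomes. Over all 49656 sites CBP was listed at 27.0% untreated and 17.5% after rosiglitazone. The corresponding all-site shares of p300 were 25.1% and 21.8%, and those of NCOR 34.8% and 37.4%. The MED1 lists were at 9.87% and 7.68% of all sites untreated and at 12.4% and 9.09% after rosiglitazone. CEBPa-free sites thus lay near the average of all factor sites, a little below it for CBP and p300 and a little above it for NCOR.

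**Figure D2:**
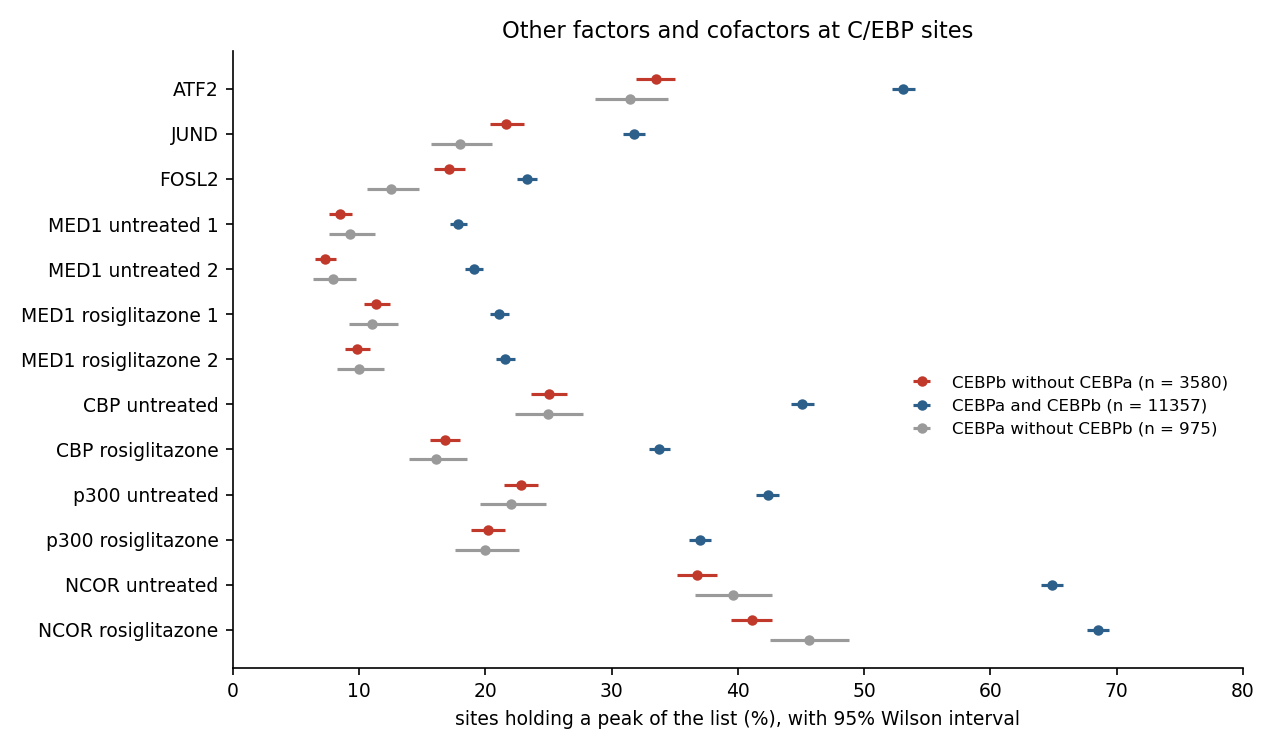
Share of sites (%) holding a peak of each of 13 lists, with 95% Wilson intervals, at 3580 CEBPb sites without CEBPa (red), 11357 shared sites (blue) and 975 CEBPa sites without CEBPb (grey). The red points lie below the blue ones in every list, from 7.29% against 19.1% for the second untreated MED1 list to 41.1% against 68.5% for NCOR after rosiglitazone.

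Within bins of CEBPb score all 10 differences became smaller: those of the coactivators fell to under 3 points and those of NCOR from about 28 to about 10 points. Untreated CBP differed by -2.14 points (-4.26 to -0.03), CBP after rosiglitazone by -1.56 points (-3.38 to 0.27), and p300 by -2.77 points (-4.85 to -0.70) and -2.11 points (-4.10 to -0.13). The MED1 differences were -0.22 points (-1.57 to 1.12) and -1.85 points (-3.19 to -0.51) in the untreated lists and -0.57 points (-2.11 to 0.97) and -1.73 points (-3.21 to -0.25) in the rosiglitazone lists. Replicates of MED1 thus fell on different sides of the threshold in each condition. With the upper 50% of each list, the differences within bins were -8.03 and -5.63 points for CBP and -6.84 and -3.92 for p300. They were then -3.06, -5.42, -3.55 and -6.04 points for the 4 MED1 lists, and -7.47 for ATF2. That setting also cut the CEBPa list, so sites whose CEBPa peak was cut counted as CEBPa-free. These larger values therefore cannot show whether the differences at CEBPa-free sites depended on the weaker peaks. With the full lists, NCOR differed by -9.52 points (-12.0 to -7.08) untreated and by -10.8 points (-13.3 to -8.32) after rosiglitazone. It was lower on 20 of 20 chromosomes in each. With the 8 combinations of ATF2, JUND and FOSL2 held equal as well, the NCOR differences were -9.02 points (-11.2 to -6.86) and -10.4 points (-12.6 to -8.13). Over 7 alternative settings the untreated NCOR value ran from -12.8 to -9.02 points and the rosiglitazone value from -15.6 to -10.4, each interval below 0. Whether the NCOR difference was larger than those of the other lists was not tested.

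**Figure D3:**
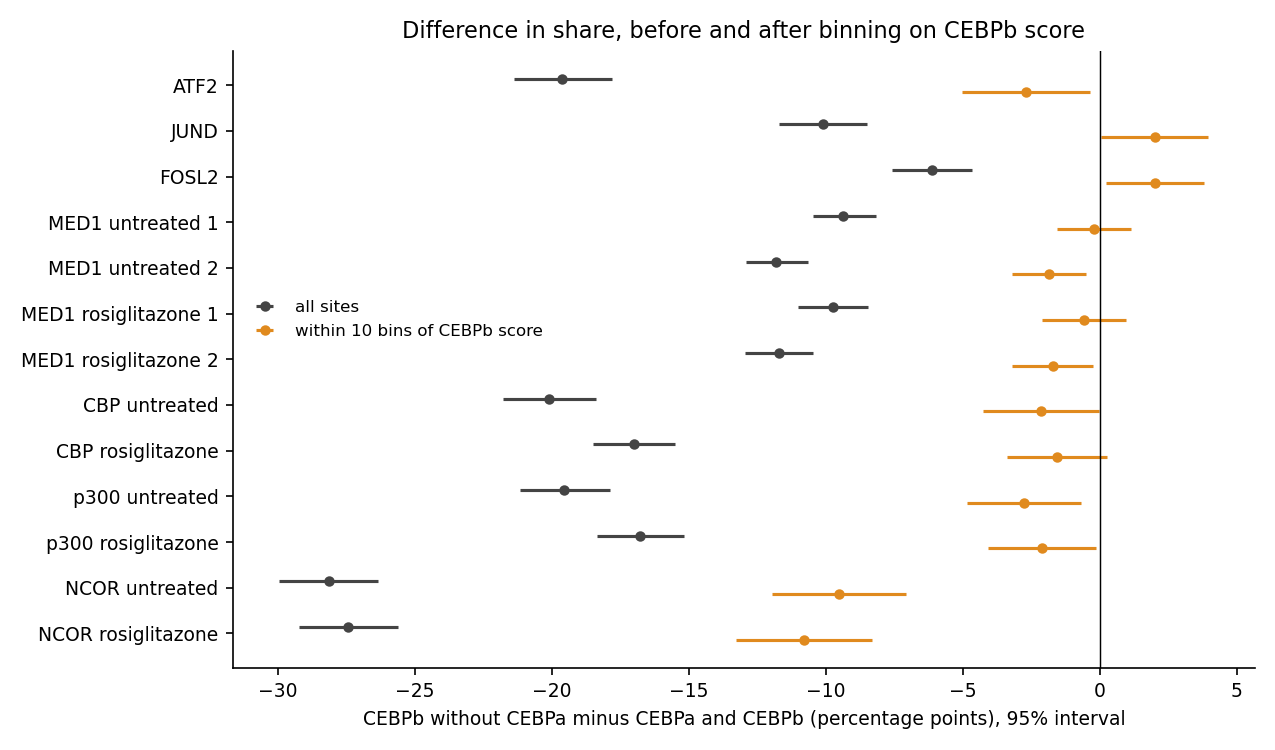
Difference in the share of sites holding each list, CEBPb sites without CEBPa minus shared sites, in percentage points with 95% intervals, over all sites (black) and within 10 bins of CEBPb score (orange). The orange values lie between -2.77 and 2.02 points for all lists but NCOR, whose values move from -28.2 and -27.4 to -9.52 and -10.8 points.

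NCOR was less frequent at CEBPa-free sites with and without a coactivator. Among the 1137 CEBPa-free sites with CBP or p300 in untreated cells, 805 (70.8%) also held NCOR, against 88.0% of such shared sites. That difference was -17.2 points (-20.0 to -14.5), and -11.2 points (-14.8 to -7.67) within CEBPb score bins. Among the 2443 sites with neither CBP nor p300, 511 (20.9%) held NCOR, against 38.9%, a difference of -18.0 points (-20.1 to -15.9) and of -7.19 points (-9.82 to -4.56) within bins. CBP or p300 without NCOR was found at 332 CEBPa-free sites (9.27%), against 6.34% of shared sites. NCOR with neither coactivator and no MED1 was found at 473 CEBPa-free sites (13.2%) untreated and 676 (18.9%) after rosiglitazone, against 16.8% and 23.4% of shared sites.

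Sites at the weak end of the CEBPa list had ATF2, CBP and p300 shares close to those of CEBPa-free sites, lower JUND and FOSL2 shares and higher NCOR shares. The 1239 shared sites with the lowest CEBPa scores (up to 1.14) had a median CEBPb score of 1.26. ATF2 was at 32.9% of them, untreated CBP at 24.5% and untreated p300 at 22.7%, against 33.5%, 25.0% and 22.8% of CEBPa-free sites. JUND was at 18.5% and FOSL2 at 14.2%, against 21.6% and 17.1%. Untreated NCOR was at 43.8% of them and NCOR after rosiglitazone at 48.7%, against 36.8% and 41.1%. These sites were picked by CEBPa score, so the values are given without a test.

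The mirror class, CEBPa sites without CEBPb, showed no difference past the threshold from CEBPa-free CEBPb sites in CBP, p300 or MED1. Untreated p300 was 0.74 points higher at CEBPa-free CEBPb sites (-2.28 to 3.60) and untreated CBP 0.08 points higher (-3.06 to 3.06). JUND was 3.70 points higher (0.84 to 6.37) and FOSL2 4.61 points higher (2.08 to 6.92) at CEBPa-free CEBPb sites. NCOR after rosiglitazone differed by -4.55 points (-8.07 to -1.05), lower at CEBPa-free CEBPb sites, and untreated NCOR by -2.83 points (-6.31 to 0.59).

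The CEBPa-free sites differed widely among themselves. As at shared sites, cofactors were listed most often where ATF2 was present together with JUND or FOSL2. Where none of the 3 factors was present (2137 sites), untreated p300 was at 7.11%, CBP at 7.49%, NCOR at 21.1% and the first MED1 list at 1.59%. At the 531 sites with ATF2 alone the same shares were 33.5%, 39.0%, 53.1% and 10.4%. At the 112 sites with JUND and FOSL2 but no ATF2 they were 19.6%, 26.8%, 40.2% and 5.36%. At the 364 sites with all 3 factors they were 69.5%, 77.5%, 74.5% and 34.9%. At these last sites CBP was thus listed about as often as NCOR, while NCOR led clearly where none of the 3 was present. Shared sites showed the same pattern: untreated p300 was at 13.5% with none of the factors and at 80.6% with all 3. CBP was at 12.5% and 88.5% of these shared sites, and NCOR at 41.2% and 90.8%. At CEBPa-free sites the median CEBPb score was 1.17 with none of the factors and 1.26 with all 3. Over the 8 combinations it ran from 1.16 (JUND and FOSL2 without ATF2) to 1.29 (ATF2 and JUND without FOSL2).

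**Figure D4:**
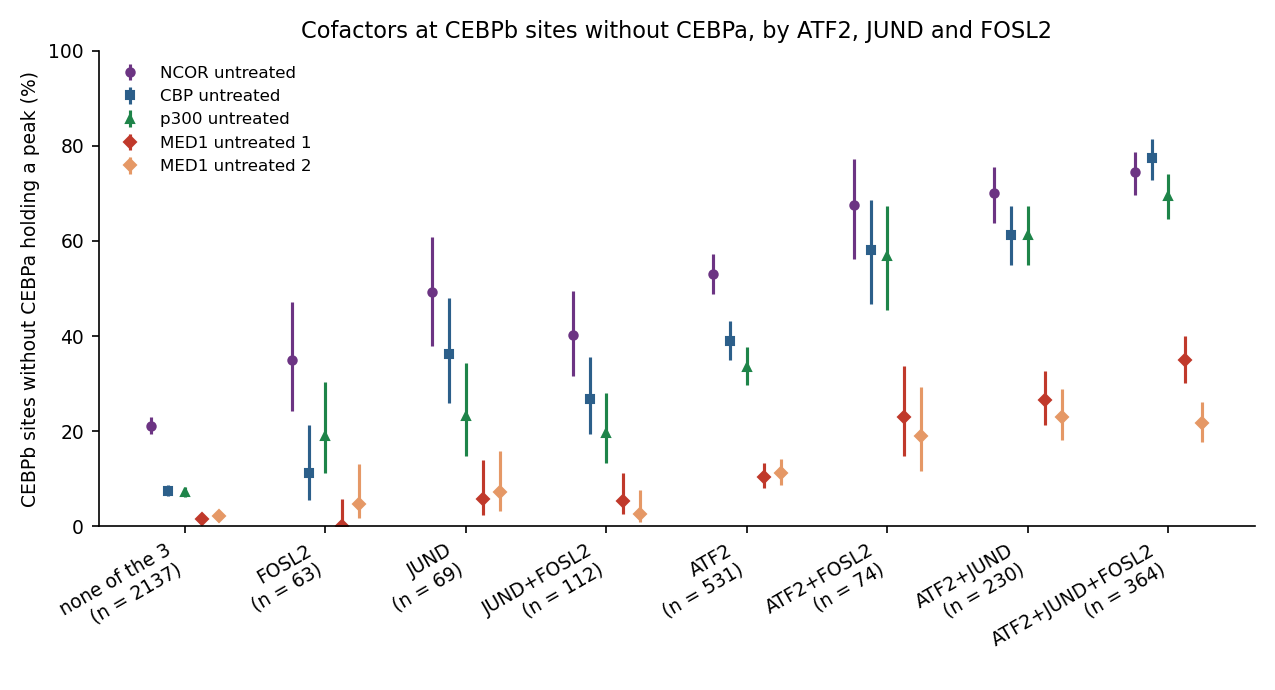
Share of CEBPb sites without CEBPa (%) holding an untreated NCOR, CBP, p300 or MED1 peak, with 95% Wilson intervals, in the 8 combinations of ATF2, JUND and FOSL2 (number of sites under each). The shares rise from 7.11% (p300) and 21.1% (NCOR) with none of the factors to 69.5% and 74.5% with all 3.

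With the other 2 factors and the CEBPb score bin held equal, ATF2 presence went with larger differences than JUND or FOSL2 presence in each of the 10 cofactor lists, though differences between the 3 factors were not tested. CEBPa-free sites with ATF2 held untreated CBP at 56.1% against 9.32% without ATF2, a difference of 46.8 points (43.7 to 49.8). With JUND, FOSL2 and CEBPb score bin held equal it was 34.8 points (30.6 to 38.9). For p300 the ATF2 difference was 42.7 points (39.7 to 45.7) and 34.6 points (30.5 to 38.6) with the others held equal. NCOR followed the same pattern, at 63.7% against 23.2%, with 30.8 points (26.4 to 35.1) left. JUND kept 15.6 points (9.56 to 21.7) of its 42.1 points for p300 with ATF2, FOSL2 and bin held equal, and 11.7 points (5.76 to 17.6) of 37.2 for NCOR. These values are for the untreated lists. FOSL2 kept 7.69 points (2.35 to 13.0) of 37.3 for p300 untreated and 0.90 points (-4.54 to 6.34) of 28.2 after rosiglitazone. For NCOR it kept 4.61 points (-0.71 to 9.94) of 32.0 untreated and 7.68 points (2.39 to 13.0) of 30.5 after rosiglitazone, so its calls were not the same in both conditions. For the first untreated MED1 list, ATF2 kept 18.1 points (14.9 to 21.4) of 19.8 and JUND 11.1 points (5.86 to 16.4) of 21.8. For the second untreated list ATF2 kept 12.8 points (9.62 to 16.02) of 14.7 and JUND 5.19 points (0.07 to 10.3) of 13.8. Sites with a partner factor join at least 2 windows and so can be longer, and site width was not held equal. The part of width in these differences was not tested, and they were not computed at shared sites.

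Cofactor peaks at CEBPa-free sites ranked lower within their own lists than those at shared sites. They lay close to the CEBPb centre, a closeness that the overlap rule itself favours. The median distance between centres was 28 bp for untreated p300, 29 bp for untreated CBP and 29 bp for untreated NCOR, against 24 bp for each at shared sites. ATF2 centres lay a median of 31 bp away, JUND 36 bp and FOSL2 44 bp, against 26, 32 and 37 bp. The median within-list score percentile of cofactor peaks at CEBPa-free sites ran from 49.7 (CBP after rosiglitazone) to 60.2 (second MED1 rosiglitazone list). At shared sites it ran from 67.5 to 74.7. These ranks were not compared within bins of CEBPb score.

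The sites with the highest CEBPb scores were of different kinds. The highest, on chromosome 10 at 116550094 to 116550293, scored 5.20 for CEBPb, held none of the 3 partner factors, and had NCOR peaks alone among the cofactors, with scores of 1.73 untreated and 2.51 after rosiglitazone. It lies in a stretch where CEBPa and CEBPb peaks rank high in their lists and those of most other lists do not. The second, on chromosome 9 at 102604940 to 102605279, scored 4.87 and held every other list but FOSL2. Its MED1 scores were 6.31 and 5.02 untreated and 13.31 and 11.68 after rosiglitazone, while CBP was at 8.06 and 7.93, p300 at 7.22 and 8.02 and NCOR at 7.80 and 8.00. The sites on chromosome 5 at 145197969 to 145198177 (4.17) and on chromosome 6 at 52340673 to 52340892 (4.08) also held MED1 in all 4 lists. At the chromosome 6 site the MED1 scores were 4.73 and 4.83 untreated and 7.59 and 10.73 after rosiglitazone. Scores are not compared between lists here, since the authors' scaling is not known.

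A small set of CEBPa-free sites held every other list. The highest of these 29 by CEBPb score, on chromosome 2 at 145524870 to 145525126, scored 3.82, with its nearest CEBPa centre 763 bp away. The next were on chromosome 4 at 47151156 to 47151452 (3.26) and on chromosome 19 at 44512134 to 44512388 (3.17). At the opposite end, the CEBPb peaks with no other list at all reached 3.49 on chromosome 10 at 116600686 to 116600885. The next were 3.08 on chromosome 15 at 3201061 to 3201260 and 2.97 on chromosome 6 at 52450500 to 52450699.

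By condition, CBP peaks at CEBPa-free sites were fewer after rosiglitazone and NCOR peaks more numerous. CBP was in both lists at 520 sites, in the untreated list alone at 375 (10.5%) and in the rosiglitazone list alone at 80 (2.23%). Over all 49656 sites these last shares were 12.0% and 2.41%. For p300, 527 sites were in both lists, 289 (8.07%) in the untreated list alone and 195 (5.45%) in the rosiglitazone list alone, against 8.55% and 5.22% of all sites. NCOR was in both lists at 1059 sites, in the untreated list alone at 257 (7.18%) and in the rosiglitazone list alone at 412 (11.5%), against 6.17% and 8.81% of all sites. The CBP and p300 shares thus lay near those of all sites, and the NCOR shares lay somewhat above them. At shared sites the NCOR shares were 6.18% and 9.79%. With 1 library per condition nothing was tested between conditions, and the CBP list itself was shorter after rosiglitazone (9515 against 15383 peaks) and the NCOR list longer (28491 against 25136).

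**Figure D5:**
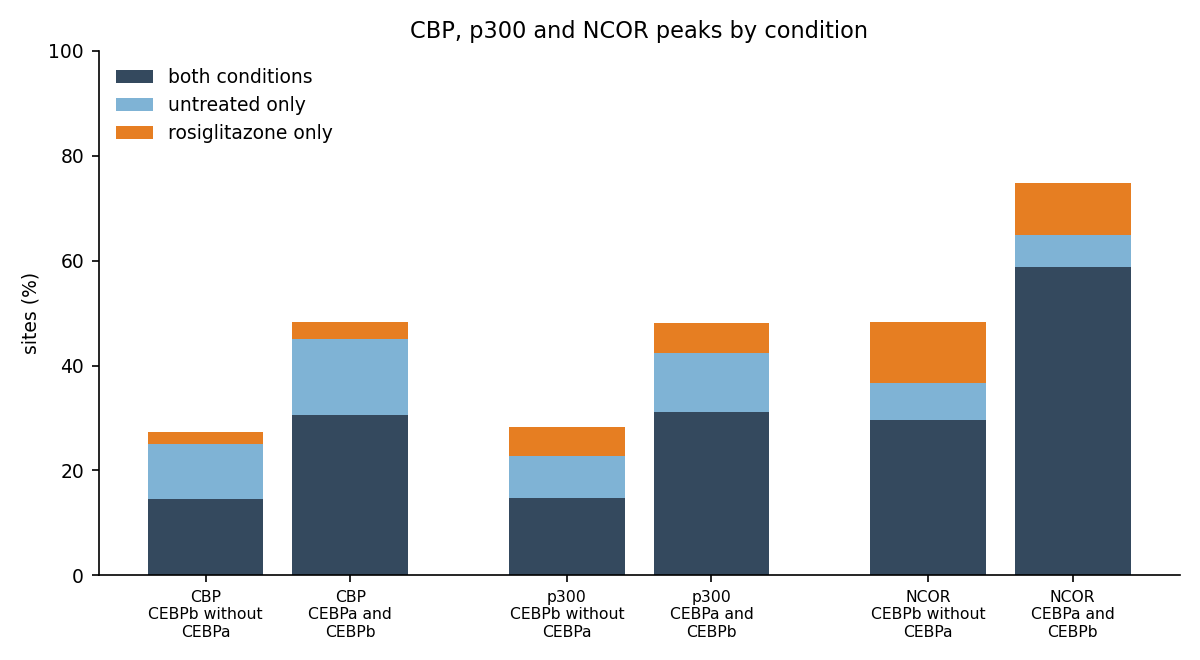
Share of sites (%) where CBP, p300 or NCOR was listed in both conditions, untreated only or after rosiglitazone only, at CEBPb sites without CEBPa and at shared sites. At CEBPb sites without CEBPa, NCOR was listed after rosiglitazone only at 11.5% and CBP at 2.23%.

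Among sites where a cofactor was in 1 of its 2 lists, the share listed after rosiglitazone differed from shared sites past the threshold for p300 but not for CBP or NCOR. Of the 455 CEBPa-free sites where CBP was in 1 list, 17.6% were in the rosiglitazone list, against 17.9% of such shared sites (difference -0.32 points, -3.98 to 3.77). For NCOR the shares were 61.6% of 669 sites against 61.3% (0.28 points, -4.07 to 4.54). For p300, 40.3% of 484 sites were in the rosiglitazone list against 34.2% at shared sites, a difference of 6.04 points (1.26 to 10.9). It kept its call in 5 of 7 alternatives, at 5.13 to 10.3 points, and lost it within CEBPb score bins (2.46 points, -3.85 to 8.78) and with CEBPb and CEBPa lists of equal length (4.57 points, -1.39 to 10.8). Over all sites the shares were 16.8% for CBP, 58.8% for NCOR and 37.9% for p300, the last inside the 36.0% to 44.7% Wilson interval of the CEBPa-free sites.

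Peaks at CEBPa-free sites were less often kept from the untreated to the rosiglitazone list than peaks at shared sites, and about as often as over all sites, where CBP was kept at 55.7%, p300 at 65.9% and NCOR at 82.3%. CBP was kept at 58.1% of its untreated CEBPa-free sites against 67.9% of shared ones (-9.78 points, -13.3 to -6.33). For p300 the shares were 64.6% against 73.5% (-8.91 points, -12.5 to -5.46), and for NCOR 80.5% against 90.5% (-10.01 points, -12.3 to -7.84). Within CEBPb score bins the differences were -1.15 points (-5.75 to 3.46) for CBP, -1.67 points (-6.25 to 2.91) for p300 and -3.77 points (-6.75 to -0.79) for NCOR. Binned instead on the within-list percentile of the NCOR peak itself, the NCOR difference was -5.24 points (-7.42 to -3.07).

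MED1 was listed at more CEBPa-free sites after rosiglitazone in each replicate number. The untreated lists held it at 304 and 261 sites and the rosiglitazone lists at 406 and 352, so the groups did not overlap. The rosiglitazone lists were also longer, with 8069 and 7104 peaks against 5660 and 4656. Per 100 peaks of the list, CEBPa-free sites with MED1 numbered 5.37 and 5.61 untreated and 5.03 and 4.95 after rosiglitazone, so relative to list length the order was the opposite. The means were 282.5 ± 30.4 and 379.0 ± 38.2 sites (SD, n = 2), a 1.34-fold ratio or 0.42 on the log2 scale, with a two-sided exact permutation p of 0.33, the smallest that 2 lists against 2 can give. The log2 ratio was 0.42 between the lists numbered 1 and 0.43 between those numbered 2. At shared sites the counts were 2028 and 2170 untreated and 2396 and 2449 after rosiglitazone, a log2 ratio of 0.21 (exact permutation p = 0.33). Over all 49656 sites the counts were 4899 and 3812 untreated and 6147 and 4514 after rosiglitazone, so there the groups overlapped. The log2 ratio over all sites was 0.29 (exact permutation p = 0.67). Whether the ratio differed between the classes was not tested. Counts per 100 peaks of the list were computed for CEBPa-free sites alone, so their order cannot be called particular to that class.

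Agreement between the MED1 lists was limited at CEBPa-free sites. Of the 745 sites (20.8%) in any MED1 list, 389 were in 1 list, 195 in 2, 100 in 3 and 61 in all 4. MED1 was gained (in both rosiglitazone lists and neither untreated list) at 48 CEBPa-free sites (1.34%), against 1.05% of all sites. MED1 was lost (the opposite) at 13 (0.363%), against 0.461% of all sites. At shared sites 1.88% were gained and 0.977% lost. The counts depended on each library: without the first or second untreated list 82 and 79 sites were gained and 92 and 82 lost, and without the first or second rosiglitazone list 169 and 168 were gained and 39 and 22 lost. The second rosiglitazone list began at a score of 1.43, the other 3 between 1.02 and 1.05, and the part of this in the calls was not tested.

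At the 48 gained sites p300 was listed at 27 untreated (56.2%, 95% Wilson interval 42.3% to 69.3%) and at 37 after rosiglitazone (77.1%, 63.5% to 86.7%), intervals that overlap. At the 214 gained shared sites the counts were 163 and 178. No test was made between these single libraries. Of the 48, CBP was at 30 and 23, and NCOR at 41 and 41. ATF2 was at 29, JUND at 18 and FOSL2 at 14. At the 13 lost sites p300 was at 10 untreated and 7 after rosiglitazone, CBP at 9 and 5, and ATF2 at 12. The 61 sites with MED1 in all 4 lists held p300 at 60 in each condition, NCOR at 59 in each, CBP at 59 and 57, ATF2 at 56 and JUND at 49. Seen from p300, the 195 sites with p300 after rosiglitazone only held MED1 at 16 and 16 sites (8.21% in each) in the untreated lists. In the rosiglitazone MED1 lists, which were longer, the counts were 41 and 44 (21.0% and 22.6%). Shared sites of this kind were alike: of 664, MED1 was at 9.64% and 14.2% untreated and at 21.1% and 24.2% after rosiglitazone. The 289 sites with p300 in untreated cells only held MED1 at 28 and 39 sites untreated and at 30 and 38 after rosiglitazone. At the 1275 shared sites of that kind the counts were 141 and 251 untreated and 141 and 235 after rosiglitazone.

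Single sites show the range of these changes. The gained site with the highest MED1 percentiles, on chromosome 4 at 105621004 to 105621215, had MED1 scores of 5.46 and 7.15 after rosiglitazone, a p300 score of 1.93 untreated and 4.68 after, and NCOR scores of 4.56 and 4.47. The next gained sites were on chromosome 5 at 5349369 to 5349741 (MED1 4.18 and 4.53) and on chromosome 2 at 137985872 to 137986112 (3.33 and 4.77). The 3 highest lost sites, on chromosome X at 145818503 to 145818808, chromosome 2 at 103728391 to 103728611 and chromosome 14 at 47058466 to 47058713, had untreated MED1 scores of 2.40 and 1.42, 1.80 and 1.42, and 1.95 and 1.23.

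The sites with the highest-ranked CBP, p300 or NCOR peak in 1 condition differed in what the other lists held. The site on chromosome 16 at 92164551 to 92164807 had no untreated CBP peak and a CBP score of 6.10 after rosiglitazone, while p300 scored 7.11 and 8.75 and NCOR 12.64 and 10.52. The second such CBP site, on chromosome 13 at 9575975 to 9576174, scored 3.29 for CBP and gained p300 too (3.52). CBP was listed untreated only at the site on chromosome 3 at 58460388 to 58460665 (5.18), where ATF2 scored 15.33, and on chromosome 5 at 107350847 to 107351046 (4.12), where p300 scored 4.13 and 4.01. For p300, the highest sites listed after rosiglitazone only were on chromosome 8 at 49267465 to 49267687 (4.31) and on chromosome 11 at 70569368 to 70569567 (4.13), each with MED1 in both rosiglitazone lists. At the chromosome 8 site CBP scored 3.00 untreated and had no peak after rosiglitazone. p300 was listed untreated only at the site on chromosome 15 at 12527178 to 12527541 (3.64), and at a site on chromosome 18 (4.80).

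The highest sites with NCOR after rosiglitazone only held few other lists. The site on chromosome 6 at 30075629 to 30075828 scored 4.93 for NCOR, with CBP at 1.92 after rosiglitazone, and the site on chromosome 15 at 3908277 to 3908476 scored 4.37 and held no other cofactor. The highest site with NCOR in untreated cells only, on chromosome 3 at 10191141 to 10191340, scored 4.14 for NCOR. Its CEBPb score was 1.03 and no ATF2, JUND or FOSL2 peak was listed there. MED1 scored 9.02 and 7.96 untreated and 19.79 and 17.40 after rosiglitazone, p300 3.31 and 4.19, and CBP 2.35 untreated with no peak after. The other, on chromosome 9 at 44234815 to 44235042, scored 3.52 for NCOR and had MED1 in the first rosiglitazone list alone (3.07).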

How the data were processed

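The deposited files are 1 peak list per ChIP-seq library, with each peak a 200 bp window and a score. The score was set by the authors, on a scale the labels do not state. The build was mm8 and the tools named are HOMER, Bowtie and bedtools, per the submitters' processing notes. Tool versions, peak thresholds and any subtraction of input were not given in the sources used here. Not analysed here were 10 GRO-seq samples and 1 input sample. No mm8 genome was used here, so sequences, motifs and genes at the sites, and marker genes of adipocytes or other cells, were not analysed.

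Windows of the 5 factor lists overlapping by 1 bp or more were chained into sites, and a site held another list when a peak of it overlapped by 1 bp or more. Shares carry 95% Wilson intervals and their differences 95% Newcombe intervals, for counting error only. Differences within 10 bins of CEBPb score, with ties kept together, were weighted to the CEBPa-free sites. No p-value was computed for differences of shares. MED1 counts were compared by a two-sided exact permutation test over 4 lists. Python 3.11.15, numpy 2.4.6, scipy 1.17.1 and matplotlib 3.10.9 were used, and the joining and binning were tested on simulated data.

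The sites, tests and settings were chosen with earlier results of these data known. Regions named are the 5 highest by CEBPb score, the 3 highest with MED1 in all 4 lists, with MED1 gained or lost, in every or in no other list, the 2 highest by within-list percentile where CBP, p300 or NCOR was in 1 condition, and 2 on each side of the rule's edge.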

Additional observations from a re-analysis of the deposited data

How the results depend on the processing

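Of 229 values under alternative settings, 185 kept their direction and side of the threshold or, for counts, stayed within 1.5 times. The log2 MED1 ratios among them were judged by direction alone. Alternatives for the values within bins were chosen after seeing the data. The cause of a change was not tested. The number of CEBPa-free sites was 1675 with the upper 50% of each list and 1826 with a CEBPb list as long as the CEBPa list, where gained MED1 sites were 18 and 25. The upper 50% setting also cut the CEBPa list, so sites whose CEBPa peak was cut counted as CEBPa-free there. Its values thus describe another set of sites, not the stronger CEBPa-free sites alone. Lost sites were 5 with the upper 50%. Leaving out each MED1 list, gained sites ran from 79 to 169, lost sites from 22 to 92 and the log2 MED1 ratio from 0.32 to 0.54.

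Within CEBPb score bins the JUND and FOSL2 differences turned to 2.01 and 2.02 points, and those of the first untreated MED1 list (-0.22), the first rosiglitazone MED1 list (-0.57) and CBP after rosiglitazone (-1.56) lost their call. The share of changed sites listed after rosiglitazone only was then 0.73 points for CBP, 2.46 for p300 and -2.02 for NCOR. That share for CBP was also above 0 at a 100 bp overlap (0.44), in the upper 50% (2.41) and for the CEBPb window alone (0.50). For NCOR it was -3.37 in the upper 50% and -0.57 with equal CEBP lists, where p300 lost its call (4.57).

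For values within bins, a 100 bp overlap gave 1.60 for JUND, 1.26 for FOSL2 and 0.11 for the first untreated MED1 list. The upper 50% gave 1.30 for JUND, -0.12 for FOSL2, -3.06 and -3.55 for the first untreated and first rosiglitazone MED1 lists and -5.63 for CBP after rosiglitazone. Equal CEBP lists gave 0.92 for JUND, 0.93 for FOSL2, -2.09 for ATF2 and -1.50 for the second rosiglitazone MED1 list. CBP after rosiglitazone gained a call with no CEBPa centre within 1000 bp (-1.99) and with combinations held equal too (-1.59). p300 after rosiglitazone lost it with the CEBPb window (-1.91) and 50 bins (-1.83), as did untreated CBP with 50 bins (-1.87).

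With the replicate number as a replicate block the log2 MED1 ratio was 0.42 (exact sign-flip p = 0.5), as without it. Deviations of same-numbered MED1 lists correlated at 0.19 over the CEBPa-free sites, and with 2 pairs the numbers were not taken as pairing. Depth is unknown, so absence from a list is absence above an unknown limit.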

Other observations

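A stretch of chromosome 10 between 116 and 118 Mb, chosen after its values were seen, held 7 CEBPa-free CEBPb sites. Among them were 3 of the 10 CEBPa-free sites with the highest CEBPb scores in the genome, with scores of 5.20, 3.76 and 3.49. All 7 lacked ATF2, JUND and FOSL2, and 5 were in none of the 10 MED1, CBP, p300 and NCOR lists. Their median CEBPb score was 2.11, and that of the 19 shared sites in the stretch was 4.96. The 26 CEBPb peaks and the 19 CEBPa peaks there had median within-list score percentiles of 95.5 and 94.6. The median percentile was 44.6 for the 11 ATF2 peaks, 55.2 for the 14 JUND peaks, 76.1 for the 11 FOSL2 peaks and 45.3 for the 20 untreated NCOR peaks. The CEBPa and CEBPb lists carry DS in their peak names, which the labels do not explain, and whether they share chromatin or protocol with the rest was not tested.

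Most CEBPa-free sites with MED1 also held CBP or p300, while most sites with CBP or p300 held no MED1. Of the 456 sites in an untreated MED1 list, 383 also held CBP or p300 in untreated cells, and 35 held none of CBP, p300 and NCOR. After rosiglitazone, 426 of 584 such sites held CBP or p300, and 65 held none of the 3. Seen from the coactivators, MED1 was at 383 of the 1137 CEBPa-free sites with CBP or p300 untreated and at 426 of 899 after rosiglitazone. Shared sites with MED1 held CBP or p300 at 2756 of 3028 untreated and at 2860 of 3404 after rosiglitazone, larger parts than at CEBPa-free sites. None of the 3 was present at 100 and 123 of these shared sites. The difference between the classes was not tested.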
